A study of Rattus norvegicus with 3 samples.

Results

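The T cell receptor complex and its first signalling steps were followed through 10 genes in peripheral blood mononuclear cells (PBMCs), which are mainly lymphocytes with some monocytes, of rats in a treadmill running study. The genes were Cd3d, Cd3e, Cd3g, Cd247, Lck, Zap70, Lat, Cd2, Cd5 and Cd6, and every probe set whose gene symbol was one of these names was taken. That gave 13 of the 31099 probe sets of the array, and 10 of the 13893 genes that had exactly 1 symbol. Cd3e, Cd247 and Zap70 had 2 probe sets each and the other 7 genes had 1. All animals were 2-month-old male Sprague–Dawley rats without a stated genotype. The downhill treadmill running group, the uphill treadmill running group and the control group were represented by 1 array each. RNA came from mononuclear cells taken from 2 ml of a mixture whose makeup is not given in the sources used here, so the number of rats behind an array is unknown, as are the running schedule and the time of sampling. With 1 array per group no spread between animals was measured, no test was possible, and each difference compares these arrays.

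The T cell receptor has antigen-binding chains with almost no cytoplasmic part, and it signals through the invariant CD3 chains and the zeta chain encoded by Cd247. After binding, the kinase Lck phosphorylates tyrosines in the tails of these chains, the kinase Zap70 docks there, and Zap70 phosphorylates the membrane adaptor Lat, on which the downstream signalling complexes assemble. Cd2, Cd5 and Cd6 are surface proteins that sit beside the receptor. Cd2 binds a ligand on the partner cell and strengthens adhesion, and Cd5 and Cd6 are related scavenger receptors known mainly for damping receptor signals. In blood, the CD3 chains mark T cells, while Cd247, Cd2, Lck, Zap70 and Lat are also known from natural killer cells and Cd5 from some B cells.

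Values are RMA intensities on a linear scale as deposited, and levels of different probe sets are not comparable with each other. The median intensity of all probe sets was 219.29 on the downhill array, 216.51 on the uphill array and 228.74 on the control array. All 13 probe sets were called present on all 3 arrays, with intensities between 1096 and 6966, above the floor of 353.24, the median of all gene values, that was used for counting genes. A probe set for the T cell receptor beta chain (Tcrb) was also bright, at 8524 on the downhill, 7559 on the uphill and 7992 on the control array. The co-receptor gene Cd8a, a mark of cytotoxic T cells, was called present on all 3 arrays, but the only probe set of Cd4, which marks helper T cells, was not called present on any array (275.63 downhill, 261.46 uphill and 299.34 control).

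None of the 10 genes reached a 2-fold difference in any comparison. For genes with 2 probe sets the brighter one is counted. Of all genes bright enough to be counted, 1.10% (80 of 7264) differed at least 2-fold between downhill and control, 1.37% (100 of 7323) between uphill and control and 0.892% (64 of 7175) between downhill and uphill. At these rates a list of 10 genes without any 2-fold member is near the background. No member reached 1.5-fold either. The widest single difference was that of Cd5, which was 1.36-fold lower on the uphill array than on the control array.

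**Figure D1:**
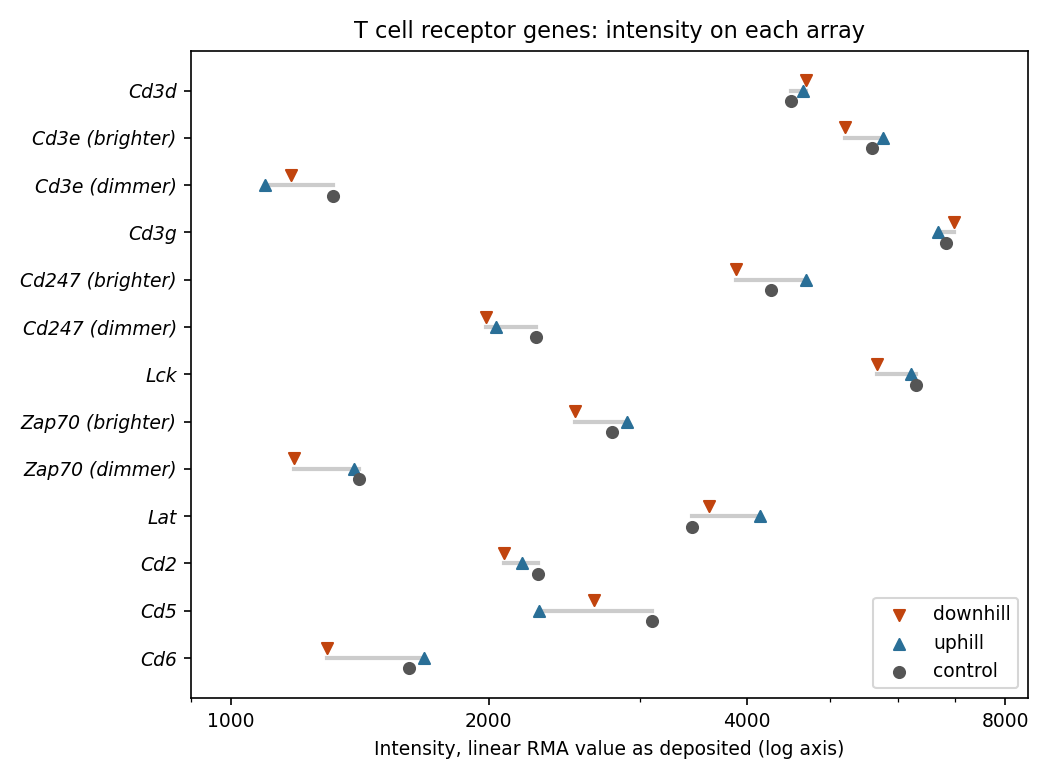
Intensity of each of the 13 probe sets (rows) on the downhill, uphill and control arrays, on a log axis, with 1 point per array and a grey line over their range. The 3 arrays lie close together in every row, with the widest relative range for Cd5 (2288 to 3102).

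The CD3 delta and gamma chains differed least. Cd3d had an intensity of 4692 on the downhill, 4652 on the uphill and 4502 on the control array, so the downhill and uphill arrays were 4.21% and 3.32% higher. Cd3g had 6966, 6681 and 6820.2 in the same order of arrays, a log2 difference from control of 0.031 for downhill and -0.030 for uphill. Both genes lie side by side on chromosome 8 and point away from each other. In the file's annotation on the Rnor3.4 assembly, the Cd3g probe set aligned to chr8:47923961-47927102 on the minus strand and the Cd3d probe set to chr8:47932150-47936741 on the plus strand.

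Cd3e encodes the epsilon chain, which pairs with the gamma and the delta chain. Its brighter probe set had 5198 on the downhill, 5757 on the uphill and 5588 on the control array, so downhill was lowest and uphill highest. Its dimmer probe set had 1175 downhill, 1096 uphill and 1315 control, and here uphill was lowest. For the downhill array both probe sets were lower than control (log2 differences of -0.10 and -0.16). For the uphill array they parted, at 0.043 and -0.26, so the direction of Cd3e on that array depends on the probe set.

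The brighter Cd3e probe set aligned nearer to the 3′ end of the gene (chr8:47947249-47947716, minus strand, Rnor3.4) than the dimmer one (chr8:47949156-47950514). The 3′ probe set was brighter than the 5′ one by a ratio of 4.42 on the downhill, 5.25 on the uphill and 4.25 on the control array. For the array's actin control, a measure of RNA and labelling quality, this ratio was 2.87 downhill, 2.68 uphill and 2.39 control, and for the GAPDH control it was 1.197 downhill, 1.32 uphill and 1.18 control. The uphill array was thus highest for Cd3e and GAPDH and the downhill array for actin. The part of RNA quality in the Cd3e difference was not tested.

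Cd247, the zeta chain, carries the largest number of phosphorylation motifs of the complex. Its brighter probe set had 3886 on the downhill, 4688 on the uphill and 4262 on the control array, and its dimmer probe set 1985, 2037 and 2272. Downhill was lower than control by both (log2 differences of -0.13 and -0.19). Uphill was 9.99% higher than control by the brighter and 1.12-fold lower by the dimmer probe set, again with no common direction.

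The gap between probe sets of 1 gene shows how far readings of that gene from the same arrays disagree. Variation shared by a whole array and variation between animals are not in it, so it cannot show which differences between arrays would repeat. For the uphill comparison the gap between log2 differences was 0.31 for Cd3e, 0.30 for Cd247 and 0.079 for Zap70. For downhill against control it was 0.059 for Cd3e, 0.061 for Cd247 and 0.11 for Zap70. Over 1061 genes with at least 2 probe sets called present on all arrays, the median gap was 0.14 for downhill, 0.19 for uphill and 0.18 between downhill and uphill. The difference was within that median gap for 6 of the 10 members between downhill and control, for 8 between uphill and control and for 5 between downhill and uphill. The 95th percentile of the gap was 0.56 for downhill, 0.67 for uphill and 0.60 between downhill and uphill, and the difference of every member lay within it. The annotation lists 7 of the 13 probe sets with between 2 and 8 probes that also match another transcript record, those of Cd2, Cd3d, Cd5, Lat and Lck and the brighter ones of Cd3e and Cd247.

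Among the kinases, Lck had 5665 on the downhill, 6221 on the uphill and 6292 on the control array. Downhill was 1.11-fold lower than control, and uphill 1.01-fold lower. Zap70 had 2519 downhill, 2902 uphill and 2785 control by its brighter probe set, and 1186, 1393 and 1413 by its dimmer one. Both Zap70 probe sets placed the downhill array lowest, at log2 differences from control of -0.15 and -0.25, and the uphill array near control (0.059 and -0.020). Between downhill and uphill they gave -0.20 and -0.23, the closest match between paired probe sets in any of these comparisons. The brighter probe set again aligned downstream of the dimmer one, on chromosome 9 (chr9:35714809-35715071, plus strand, against chr9:35713199-35714741, Rnor3.4), and its ratio to the dimmer one was 2.12 downhill, 2.08 uphill and 1.97 control.

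Lat, the adaptor that Zap70 phosphorylates, was the member with the largest difference upward. It had 3608 on the downhill, 4139.7 on the uphill and 3455 on the control array. Uphill was 19.8% higher than control, just under the 1.2-fold bound used below, and downhill was 4.42% higher. Lat and Cd3d were the only members above control on both running arrays.

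Of the accessory receptors, Cd5 and Cd6 had the widest ranges over the 3 arrays among the 10 genes, and Cd2 had a narrow one. Cd2 had 2083 on the downhill, 2188 on the uphill and 2281 on the control array, lower on both running arrays (log2 differences of -0.13 and -0.060). Cd5 had 2653 downhill, 2288 uphill and 3102 control. It was 1.17-fold lower on the downhill and 1.36-fold lower on the uphill array, the lowest log2 difference of the 10 genes there. Cd6 had 1294 downhill, 1683 uphill and 1615 control. It was 1.25-fold lower on the downhill array, the lowest log2 difference of the 10 genes on that array, and 4.22% higher on the uphill array.

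Cd5 and Cd6 thus differed in opposite order between the runs, although they are related genes near each other on chromosome 1. On Rnor3.4 their probe sets aligned to chr1:213213326-213234277 and chr1:213290838-213291449, both on the minus strand. Between downhill and uphill the log2 difference was 0.21 for Cd5, the highest of the 10 genes, and -0.38 for Cd6, the lowest. Each rests on 1 probe set.

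**Figure D2:**
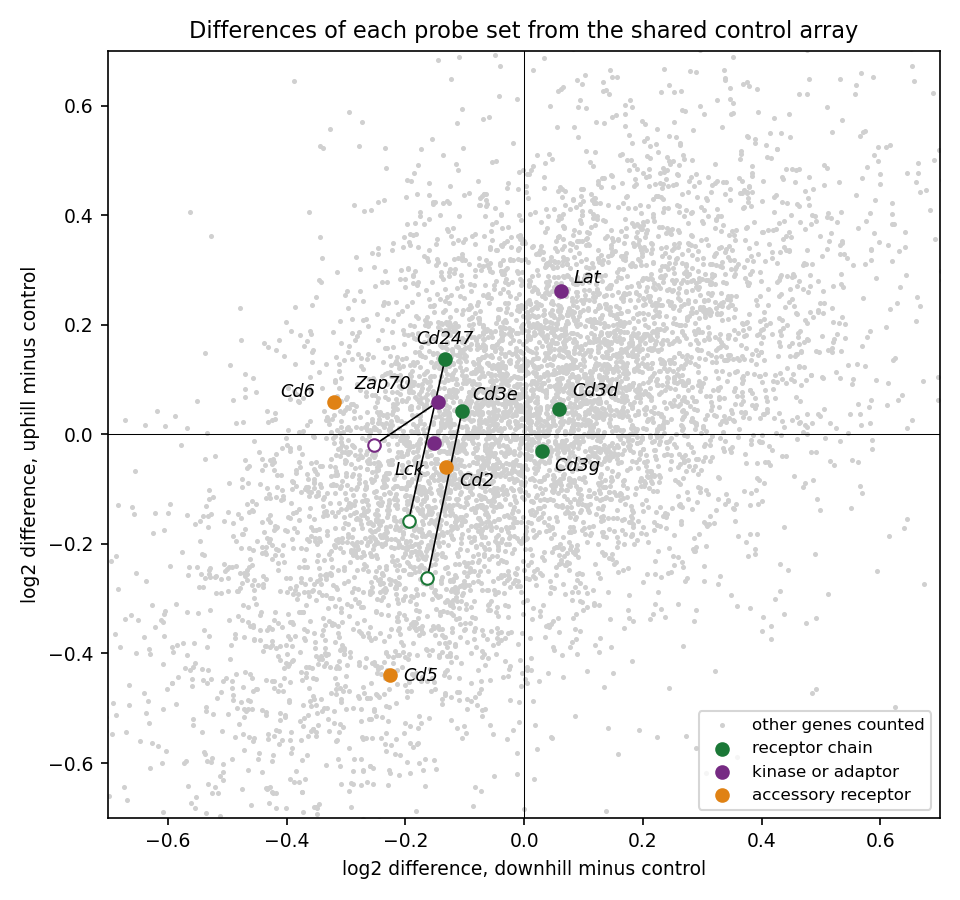
Log2 difference of each probe set from the control array, downhill on the horizontal and uphill on the vertical axis. Filled points are the brighter or only probe set of a gene and open points the dimmer one, joined by a line. Grey points are other genes counted, some outside the axes. Both axes use the same control array. Cd5 lies lowest (-0.23 and -0.44), Cd6 farthest left (-0.32) and Lat highest (0.26).

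Taking the brighter probe set of each gene, 7 of the 10 genes were lower and 3 higher on the downhill than on the control array, with a median log2 difference of -0.13 and a range of -0.32 to 0.062. Of all 7264 genes counted, 50.7% were lower on the downhill array and the median was -0.0051. By all 13 probe sets, 10 were lower on the downhill array and the median was -0.15. The 3 genes above control were Cd3d, Cd3g and Lat. The count of 3 higher and 7 lower, and each member's direction, were the same after quantile normalization, cyclic loess and centring of the arrays.

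On the uphill array 6 of the 10 genes were higher and 4 lower than on the control array, with a median of 0.045 (range -0.44 to 0.26), against 0.028 over all 7323 genes. Of these 7323 genes, 54.5% were higher and 45.5% lower, so the split of the members was near the background. That split flipped to 4 higher and 6 lower after quantile normalization or cyclic loess, in which Cd3d and Cd3e changed sign, and when probe sets of a gene were averaged, in which Cd3e and Cd247 did. No common direction can be given for the uphill array. Between downhill and uphill, 7 of the 10 genes had the lower value downhill (median -0.14), where 53.9% of all genes were lower. The comparisons with control share the control array and are not independent of each other.

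At a bound of 1.2-fold, chosen after the values were seen, 1 member (Cd6) was lower on the downhill array and none higher, where 16.1% of all genes were lower and 16.4% higher. On the uphill array 1 member (Cd5) was lower and none higher, where 15.8% of all genes were lower and 18.2% higher. Between downhill and uphill 2 members (Cd247 and Cd6) were lower on the downhill array and none higher, where 16.7% and 14.2% of all genes were. After quantile normalization, cyclic loess, centring or averaging of probe sets, Cd247 no longer passed and 1 member (Cd6) was lower between downhill and uphill. After quantile normalization 2 members (Cd5 and Cd6) were lower for downhill against control. The counts of lower members are near these background shares.

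**Figure D3:**
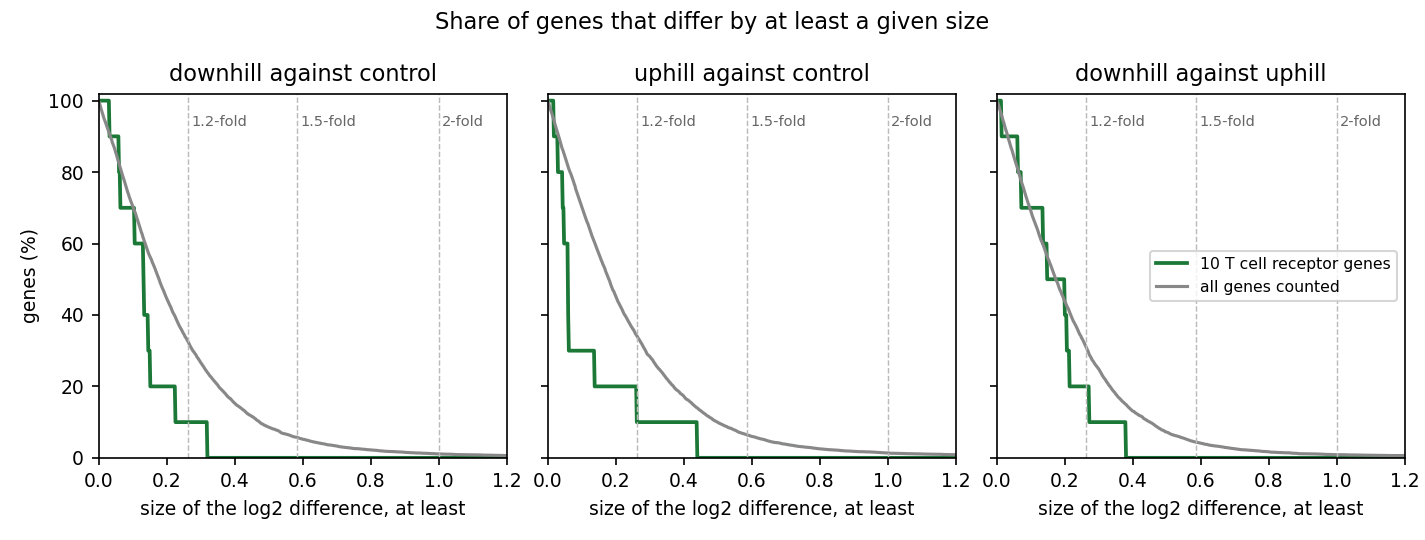
Share of genes (vertical axis, percent) whose log2 difference was at least the size on the horizontal axis in each comparison, for the 10 T cell receptor genes and for all genes counted. No member lies beyond 0.44, while 1.10%, 1.37% and 0.892% of all genes pass 2-fold (a log2 difference of 1) in the 3 panels from left to right.

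By role, the 4 receptor chains had a median log2 difference from control of -0.037 for downhill and 0.045 for uphill. The kinases and the adaptor had -0.15 for downhill and 0.059 for uphill, and all 3 of them had less signal downhill than uphill, with log2 differences of -0.20 to -0.14. The accessory receptors had -0.23 and -0.060, and all 3 were lower on the downhill array than on the control array. In whole mononuclear cells, fewer T cells and less RNA per T cell cannot be told apart.

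Other cell types differed more between the arrays than these genes did. Of 10 monocyte markers, 9 were higher on the downhill and 10 on the uphill array, their summed intensity being 64106 downhill, 62236 uphill and 39281 control. All 10 were called present on every array. The brightest, Lyz2 (30365 downhill, 31467 uphill and 19338 control), weighs most in that sum. Of all genes counted, 49.3% were higher than control on the downhill and 54.5% on the uphill array. Of 11 natural killer cell markers, all called present, 10 were higher on the downhill and 9 on the uphill array, and their sum was 45423 downhill, 41738 uphill and 36536 control. Within that list the largest downhill log2 differences were those of Cst7 (0.73), Tyrobp (0.59) and Fcgr3a (0.54). For uphill they were at 0.15, 0.37 and 0.18. Monocytes also express Tyrobp, so the list is not exclusive to natural killer cells. The natural killer receptors did not all go the same way. Klrb1b was at 0.38 for downhill and 0.47 for uphill, and Klrk1 at 0.37 and 0.20. Ncr1 was at 0.014 for downhill and -0.49 for uphill, and Klrd1 at -0.00080 and -0.25. Ncr1 and Klrd1 were the only genes of the list lower than control on the uphill array. The summed intensity of the 10 T cell receptor genes was 38563 downhill, 41197 uphill and 40703 control. For downhill, the 5 members also known from natural killer cells had a median log2 difference of -0.13, those markers 0.37 and the 5 other members -0.10. For uphill these medians were 0.059 for the shared members, 0.20 for the markers and 0.043 for the other members.

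Markers of the remaining types moved with the arrays as well. The summed intensity of 6 B cell markers was 9092 downhill, 11067 uphill and 9554 control. Cd5, known from some B cells, had log2 differences from control of -0.23 for downhill and -0.44 for uphill. Of the 5 B cell markers counted for downhill against control, 4 were lower and 1 was higher, so they did not move together. Ms4a1 was the higher one, at a log2 difference of 0.33, and Cd79b was lowest, at -0.36. For uphill against control all 5 counted B cell markers were higher, with a median of 0.18, where 54.5% of all genes were higher. The 7 platelet markers were lower on both running arrays, with a sum of 57021 downhill, 61772 uphill and 68083 control. The 7 neutrophil markers summed to 14778 downhill, 31427 uphill and 34433 control. The bright genes S100a9 (9009, 17578 and 19855) and S100a8 (4622, 11388 and 11312) weigh most in these sums. All 6 neutrophil markers counted for downhill against control were at least 2-fold lower, where 1.10% of all genes differed 2-fold in either direction. The 8 erythroid markers summed to 2312 downhill, 8039 uphill and 2481 control. Only 4 of these 8 were called present on the downhill and 3 on the control array, against 7 on the uphill array, and Klf1 on none. The part of these shifts in the values of the T cell receptor genes was not tested. Over 6 T cell markers outside the 10 genes the median log2 difference was -0.11 for downhill and -0.10 for uphill. Only 7 of the 14 T cell markers listed had a probe set here. All of the 6 but Il7r also belong to the pathway lists described below, so these lists are not separate. The receptor-associated adaptor Trat1 was at -0.29 for downhill and -0.47 for uphill, and the cytokine receptor Il7r at 0.034 and 0.47.

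Beyond the first steps, the wider pathway was also without a 2-fold difference in most lists. Of 25 downstream kinases, adaptors and effectors counted, 17 were lower on the downhill array and none passed 1.5-fold, where 3.33% of all genes were at least 1.5-fold higher and 2.37% lower. Their median log2 difference was -0.15 for downhill and -0.038 for uphill. On the uphill array 1 of the 25, the Grb2-like adaptor Grap, was lower by that bound, where 3.35% of all genes were 1.5-fold higher and 3.11% lower. Grap had 1515 downhill, 1367 uphill and 2091 control. Nck2, an adaptor that links receptors to actin, had 3096 downhill, 3221 uphill and 4386 control, lower on both running arrays. Ppp3cb, a catalytic subunit of calcineurin, the phosphatase that activates NFAT, had 1843 downhill, 2409 uphill and 1706 control and was highest on the uphill array. Its other probe set, also called present on all arrays, had 286.55 downhill, 278.76 uphill and 322.26 control and was lowest on the uphill array, so no direction can be given for Ppp3cb.

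Genes listed as restraints of receptor signalling had a median log2 difference of -0.16 for downhill (9 of 12 lower) and -0.087 for uphill (8 of 12 lower), and none passed 1.5-fold against control. The list holds Ptprc, which also activates Lck, and without it 8 of 11 genes were lower for downhill and 7 of 11 for uphill. Of all genes counted, 50.7% were lower for downhill and 45.5% for uphill. The phosphatase-like gene Ubash3b had 2900.3 downhill, 3512 uphill and 4189.8 control, and the inhibitory adaptor Sit1 had 2561, 2983 and 3463. The ubiquitin ligases Cblb and Cbl went opposite ways, with log2 differences from control of -0.41 and 0.42 for downhill and of -0.12 and 0.38 for uphill. Of 5 co-receptor and costimulation genes counted, none passed 1.5-fold. The costimulator Icos was lower on both running arrays (1459 downhill, 1706 uphill, 2034 control), and the co-receptor chain Cd8b was lower on the uphill array (813.61 downhill, 677.13 uphill, 820.24 control). The CD6 ligand Alcam was at -0.090 for downhill and 0.23 for uphill, and the rat CD2 ligand Cd48 at -0.0071 and -0.10.

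Among 12 T cell transcription factors the median log2 difference was -0.10 for downhill and -0.077 for uphill. Klf2, which keeps resting T cells in circulation and is also made by monocytes, had 7419 downhill, 4622 uphill and 8034 control, a log2 difference of -0.80 for uphill. It was the list's only gene past 1.5-fold against control. Of all genes counted, 3.11% were lower and 3.35% higher by that bound for uphill, and 2.37% and 3.33% for downhill. Tox had 1197 downhill, 1561 uphill and 1732 control, and Runx3, a factor of cytotoxic T cells and natural killer cells, was higher on both running arrays (3813 downhill, 3703 uphill, 2833 control). Foxo1 was at 0.12 for downhill and 0.42 for uphill.

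Among genes above the floor in the 5 pathway lists, those that T cells induce after receptor stimulation held the largest single differences. Other blood cells express them too. Single genes of the monocyte, neutrophil and erythroid lists differed more. Over 8 genes the median log2 difference was -0.041 for downhill and -0.37 for uphill, with 1 and 3 past 1.5-fold on the lower side. Of all genes counted, 2.37% were lower by that bound for downhill and 3.11% for uphill. Tnf had 387.47 downhill, 342.25 uphill and 1044 control, at least 2-fold lower on both running arrays. Its other probe set, which was not called present on any array, gave log2 differences of -0.12 and -0.40. The nuclear receptor Nr4a1 had 3023 downhill, 1675 uphill and 3462 control. The phosphatase Dusp2 had 7106 downhill, 4324 uphill and 7132 control, and Egr1 was at -0.076 for downhill and -0.47 for uphill. For Nr4a1, Dusp2 and Egr1 the downhill array thus lay near control and the uphill array was lowest. Between downhill and uphill 3 of the 8 genes were at least 1.5-fold higher on the downhill array, where 2.16% of all genes were higher and 2.29% lower by that bound.

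**Figure D4:**
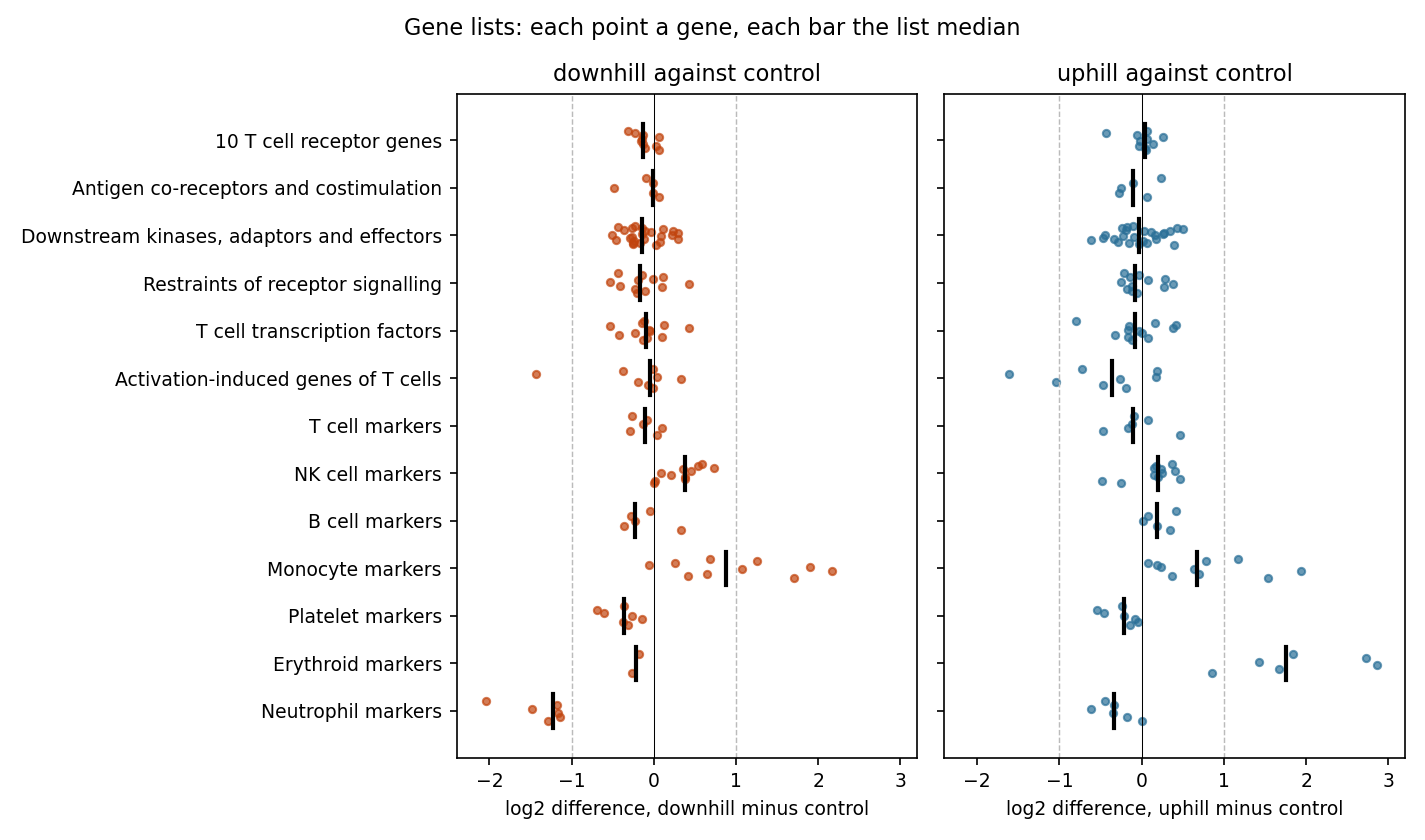
Log2 difference from control of each gene counted (points) in each list, for the downhill (left) and uphill (right) arrays, with a black bar at the list median and dashed lines at 2-fold. The 10 T cell receptor genes lie within -0.44 and 0.26 on both panels, while the monocyte medians are 0.88 and 0.67 and the neutrophil medians -1.23 and -0.34.

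Promoter windows were read for 9 of the 10 genes from RefSeq (build GRCr8), from 250 bases before to 50 bases after the gene's start. Lck had 2 windows at different starts and the others 1 each, which gave 10 windows. They were searched on both strands for 4 motif cores, none of which overlapped in these windows. The ETS core AGGAAG was found in 9 of the 10 windows and in 34.5% of 33469 rat promoter windows of the same length. The E protein core CAGGTG was found in 6 of 10 and 18.8%, the RUNX core TGTGGT in 3 of 10 and 17.3%, and the TCF/LEF core CTTTGA in 3 of 10 and 16.1%. A match describes the letters and is no evidence of binding. The windows below show a receptor chain with an ETS core close to the start (Cd3e, chr8:54211721-54212020, minus strand), the gene with the widest difference from control (Cd5, chr1:216811160-216811459, minus strand) and the gene without an ETS core (Cd2, chr2:191412610-191412909, minus strand). Capitals mark the motif cores on either strand.
Cd3e: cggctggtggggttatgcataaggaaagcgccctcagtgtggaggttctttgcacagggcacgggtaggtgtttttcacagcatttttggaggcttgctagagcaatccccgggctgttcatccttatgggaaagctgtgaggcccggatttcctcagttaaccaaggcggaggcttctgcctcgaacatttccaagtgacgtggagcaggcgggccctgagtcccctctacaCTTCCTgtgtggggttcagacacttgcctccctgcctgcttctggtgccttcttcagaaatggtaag
Cd5: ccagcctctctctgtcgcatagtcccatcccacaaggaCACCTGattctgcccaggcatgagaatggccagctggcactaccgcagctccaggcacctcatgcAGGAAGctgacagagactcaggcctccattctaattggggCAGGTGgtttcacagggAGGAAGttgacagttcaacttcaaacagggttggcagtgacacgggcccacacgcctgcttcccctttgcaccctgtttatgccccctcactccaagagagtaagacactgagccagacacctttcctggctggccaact
Cd2: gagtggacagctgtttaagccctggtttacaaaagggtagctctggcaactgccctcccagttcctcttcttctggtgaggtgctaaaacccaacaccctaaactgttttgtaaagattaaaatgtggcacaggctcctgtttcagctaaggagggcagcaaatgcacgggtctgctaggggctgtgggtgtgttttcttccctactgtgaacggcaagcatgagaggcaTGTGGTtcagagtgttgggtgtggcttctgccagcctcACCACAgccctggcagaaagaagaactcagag

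The Cd3e window held 1 match, an ETS core on the reverse strand at bases 234 to 239. The Cd5 window held 2 ETS cores (bases 104 to 109 and 161 to 166) and 2 E protein cores (bases 39 to 44 and 144 to 149). The Cd2 window held 2 RUNX cores, at bases 231 to 236 and 269 to 274.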

How the data were processed

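RNA of PBMCs from 3 groups of rats was measured on the Affymetrix Rat Expression Array 230 2.0, 1 array per group, with 100 ng of RNA labelled per the labels' protocols. The deposited intensity values were made by the authors with RMA, robust multi-array averaging, per the submitters' processing notes. The software version was not given in the sources used here. They run from 1 to 34067 on a linear scale. The file's detection calls (present, marginal, absent) have no stated algorithm and no score. The second deposited table held the same intensity values.

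Here intensities were converted to log2 without an offset (Python 3.11.15, pandas 2.3.3). Of the probe sets, 19628 had 1 symbol, and 19192 of these were matched through Entrez numbers to current RefSeq names (GRCr8, names only). The probe set with the highest mean stood for a gene. Genes entered a comparison if the brighter of its arrays reached 353.24, and calls were 2-fold. The number of arrays limits the precision.

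The members and the 5 pathway and 7 marker lists were chosen with earlier results of these data known. Named were all 10 members, up to 4 genes per list with the largest difference from control, and any past 2-fold. Tcrb, Cd4, Cd8a, Ptprc, Rasgrp1, Klrd1, Klrb1b, Klrk1 and Lyz2 were named after their values were seen. Alternatives were quantile normalization and cyclic loess (limma 3.58.1, span 0.7), median centring, an offset of 50, averaging of all probe sets per gene, no floor, and 1.5-fold and 1.2-fold thresholds.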

Additional observations from a re-analysis of the deposited data

Results flagged for a closer look

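In 5 genes the downhill and uphill arrays lay on opposite sides of the control array. The share of all genes that did so was not counted, so the 5 genes are not set apart from other genes. This difference was not tested, since each side is 1 array. The log2 difference between downhill and uphill was -0.38 for Cd6, -0.27 for Cd247, -0.20 for Zap70, -0.15 for Cd3e and 0.060 for Cd3g. The dimmer probe sets of Cd247, Zap70 and Cd3e did not lie on opposite sides of control and gave -0.037 for Cd247, -0.23 for Zap70 and 0.10 for Cd3e. In Cd3e the uphill side also changed sign after quantile normalization and cyclic loess.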

How the results depend on the processing

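No paired analysis was possible because each group has 1 array. All 165 values of members' differences and medians recomputed under quantile normalization, cyclic loess, median centring, an offset of 50 and averaging of probe sets moved by less than the median gap between probe sets of 1 gene in that comparison (0.14 to 0.19). Some of these values could hardly move. Averaging leaves members with 1 probe set as they are, and the offset moved members by at most 0.0125. The largest move of all was 0.15, for Cd3e on the uphill array with the mean of its probe sets. The median of the 10 genes ranged from -0.16 to -0.11 for downhill against control, from -0.025 to 0.045 for uphill against control and from -0.14 to -0.088 for downhill against uphill. The sign of the uphill median therefore depended on the scaling and on the choice of probe set. The count of members past 2-fold stayed at 0 in each comparison under these settings, without a floor and at 1.5-fold. At 1.2-fold, a threshold added after the data were seen, it was 0 higher and 1 lower for downhill against control, 0 higher and 1 lower for uphill against control, and 0 higher and 2 lower for downhill against uphill. Under the other scalings, the offset and averaging at that threshold the lower count was 1 or 2 for downhill against control, 1 for uphill against control, and 1 or 2 for downhill against uphill, where Cd247 passed only as deposited and with the offset. Over all genes, the median shift of a gene's log2 difference under the alternative scalings was at most 0.037 in size. Without a floor, genes at least 2-fold lower numbered 33 against 20 with it for downhill against control, and 55 against 34 for uphill against control. Between downhill and uphill 42 against 24 were higher and 61 against 40 lower.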

Other observations

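The 4 receptor chains together had a mean log2 difference from control of -0.037 for downhill and 0.049 for uphill. The 5 genes nearest to that pair of values, among 6674 other genes called present on all 3 arrays and above the floor, were Dennd4b, Slx4ip, Hgh1, Cpsf4 and Rnf213, at distances of at most 0.0096 log2 units. As many as 654 genes (9.80%) lay within 0.1, so 2 differences over 3 arrays single out no gene.

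Rasgrp1, which activates Ras downstream of Lat, was named after its values were seen and lay just under the floor. It belongs to the list of downstream kinases, adaptors and effectors and was not counted there. It had 102.55 on the downhill, 344.6 on the uphill and 87.89 on the control array by its brighter probe set, a log2 difference of 1.97 between uphill and control, while its other probe set gave 0.45. The phosphatase CD45 gene Ptprc, which switches Lck on, had probe sets that differed on the uphill array, with log2 differences from control of -0.12 for the brighter and 0.36 for the other. Icos had 3 probe sets, which gave 0.0038, -0.48 and -0.61 on the downhill array and -0.33, -0.25 and -0.39 on the uphill array.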
